A study of Homo sapiens with 8 samples.

Results

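The genes described here are 10 genes of the extracellular matrix, cell adhesion and the cytoskeleton, compared between and within the myeloma lines JJN3 and RPMI-8226: FN1, CTHRC1, PLOD2, SDC2, FZD6, CDH1, GJA1, VIM, KRT18 and S100A4. Every probe set was taken whose only annotated gene symbol is 1 of these 10, which gave 21 probe sets of 54675 (10 genes of 19775 with a probe set of their own). The genes were chosen because of their difference between the lines in these same data, so that difference is described below with no test. RNA of these cells was hybridised to 8 Affymetrix U133 Plus 2.0 arrays, 1 for each line and treatment. Each line, JJN3 and RPMI-8226, both established lines of malignant human plasma cells, gave 1 array of cells with a lentivirus carrying an XBP1 shRNA, 1 with an IRE1 shRNA, 1 with a non-targeting (NT) shRNA and 1 of uninfected cells. Infected cultures were exposed to virus for 16 h with 8 µg/mL polybrene, and the harvest was at 96 h. A treatment thus has n = 2 arrays, 1 from each line. Nothing says that arrays came from separately repeated cultures. In the fits with the line as a block, p-values measure a treatment difference against the disagreement of the 2 lines over the treatments. Fits that pool treatments also take in the spread between those treatments. This is not a spread between repeated cultures, and part of it may be technical.

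Fibronectin and collagens form the extracellular scaffold, and cells hold it through integrins and through heparan sulfate proteoglycans such as the syndecans. Cadherins and connexins join cells to their neighbours, and intermediate filaments give the cell its internal frame. In epithelial cells a loss of E-cadherin together with a gain of vimentin and fibronectin is known as the epithelial-mesenchymal transition. Myeloma cells lie in bone marrow, where adhesion to fibronectin and stroma is a known part of their growth and drug resistance. IRE1 is the endoplasmic reticulum stress sensor whose RNase splices the XBP1 mRNA, and XBP1 is a transcription factor of secretory cells.

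RefSeq promoters (GRCh38.p14) were matched for 5 of the 10 genes, and the 250 bases before the transcription start are shown for 3 of them, as examples of 1 gene lower in JJN3 with few CpG pairs, 1 lower in JJN3 with many, and 1 higher in JJN3 with few. Capitals mark the TATA box letters TATAAA, the CCAAT box and the E-box CAGGTG, each searched on both strands, so that the last may stand reversed in the sequence as printed.
S100A4, chr1:153545807-153546056, minus strand: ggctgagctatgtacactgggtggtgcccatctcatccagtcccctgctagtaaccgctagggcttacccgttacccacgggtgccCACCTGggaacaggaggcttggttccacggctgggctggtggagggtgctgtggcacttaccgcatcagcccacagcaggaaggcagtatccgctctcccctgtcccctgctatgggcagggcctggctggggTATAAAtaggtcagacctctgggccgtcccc
FN1, chr2:215436069-215436318, minus strand: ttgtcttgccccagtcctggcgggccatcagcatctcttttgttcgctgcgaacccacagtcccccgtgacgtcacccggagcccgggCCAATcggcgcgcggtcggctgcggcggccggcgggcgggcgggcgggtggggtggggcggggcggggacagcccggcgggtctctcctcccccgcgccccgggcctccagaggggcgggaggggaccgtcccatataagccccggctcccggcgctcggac
GJA1, chr6:121435396-121435645, plus strand: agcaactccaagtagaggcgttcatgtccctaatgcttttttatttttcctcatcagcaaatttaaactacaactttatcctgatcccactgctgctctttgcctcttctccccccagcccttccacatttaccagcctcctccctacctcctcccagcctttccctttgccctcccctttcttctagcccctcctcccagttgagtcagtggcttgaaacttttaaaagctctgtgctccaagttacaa

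The S100A4 window held the TATA box letters from 31 bases before the start and the E-box, on the other strand, from 164 bases before it. The TATA box letters stood in 11.1% and the E-box in 17.5% of the same window of all 27305 promoters. The FN1 and PLOD2 windows each held 1 CCAAT, 162 and 77 bases before the start, letters found in 33.0% of all promoters, and the GJA1 and VIM windows held none of these motifs. CpG pairs numbered 32 in the FN1 window and 30 in the PLOD2 window, against 1 in GJA1, 8 in VIM, 7 in S100A4 and a median of 11 over all promoters. CpG content thus differed within the genes high in JJN3 (PLOD2, GJA1, VIM) and within those high in RPMI-8226 (FN1, S100A4), and none of the 5 windows held TGACGTG, a core of known XBP1 sites present in 1.71% of all promoters.

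The deposited values are log2 signals centred on each probe set: the median of the 8 values was 0 for each of the 54675 probe sets. They give differences between arrays and no expression level. Where the lines do not overlap, that centring places the lowest array of the higher line and the highest array of the lower line at mirrored values, which held for 19 of the 21 probe sets, so neither the sign of a value nor its distance from 0 says whether the gene is expressed in a line. In such bulk RNA, fewer cells with a transcript and less of it per cell cannot be told apart. The 3′ minus 5′ difference of the actin control probe sets, a sign of RNA integrity, ran from 0.13 to 0.42 in JJN3 and from -0.61 to -0.43 in RPMI-8226, and that of GAPDH from 0.0037 to 0.046 in JJN3 and from -0.0834 to 0.0618 in RPMI-8226. Their part in the line differences was not tested. XBP1 (200670_at) was at -0.02, -1.47, 1.11 and 1.02 on the JJN3 arrays and at -0.58, -0.60, 0.02 and 0.19 on the RPMI-8226 arrays, here and below in the order XBP1 shRNA, IRE1 shRNA, NT shRNA and uninfected. ERN1 (235745_at), the gene of IRE1, was at -1.57, -1.24, -0.35 and -0.29 in JJN3 and at 0.29, 2.11, 1.73 and 2.75 in RPMI-8226. XBP1 was thus lower on the XBP1 shRNA array than on the NT shRNA array of each line, but ERN1 was lower on the IRE1 shRNA array only in JJN3. In each line XBP1 was lowest on the IRE1 shRNA array and ERN1 on the XBP1 shRNA array, so neither transcript was lowest with its own shRNA. For XBP1 in RPMI-8226, however, the XBP1 shRNA and IRE1 shRNA arrays were nearly equal (-0.58 and -0.60). Each target was read only on its probe set with the highest SD across arrays. In RPMI-8226 the array labelled IRE1 shRNA lay above the NT shRNA array for the targeted gene, and IRE1 shRNA below is the label of those arrays.

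Between the lines, 10 of the 21 probe sets were higher on all 4 JJN3 arrays than on any RPMI-8226 array by at least 1 log2 unit in the mean, and 9 were lower. Of all probe sets 9.92% were higher in this way and 4.53% lower. The genes were picked on this contrast, so nothing is read from these shares. JJN3 was higher for CTHRC1, PLOD2, SDC2, FZD6, GJA1, VIM and CDH1 and lower for FN1, KRT18 and S100A4. Taking for each gene its most variable probe set (highest SD across arrays), 7 of the 10 genes were among the 100 largest line differences of 19775 genes. The lowest-ranked were KRT18 (rank 106), VIM (851) and CDH1 (1770). The other probe sets of CDH1 and VIM (201130_s_at and 201426_s_at) overlapped between the lines.

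**Figure D1:**
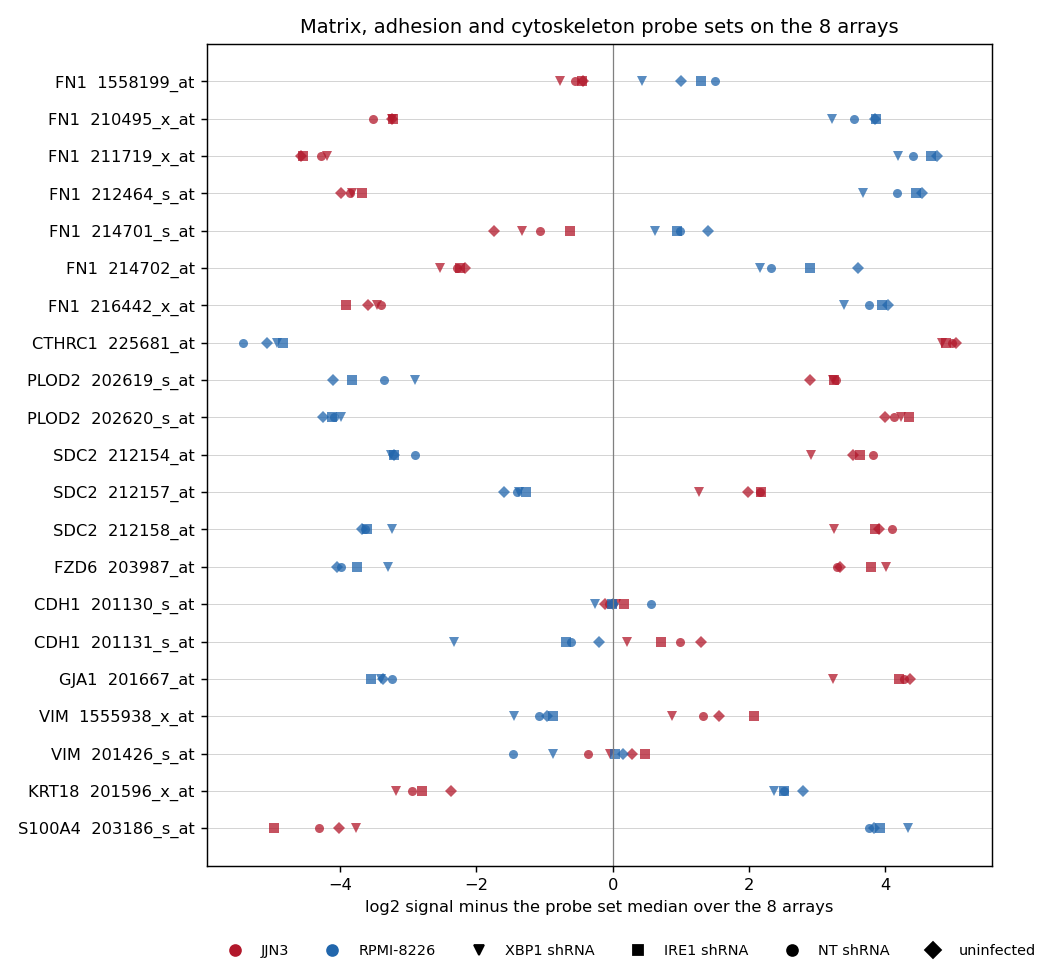
Log2 signal of each of the 21 probe sets on the 8 arrays, relative to the median of the probe set; colour gives the line and marker shape the treatment. JJN3 and RPMI-8226 arrays stand apart for 19 probe sets and overlap for CDH1 201130_s_at and VIM 201426_s_at.

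Among the secreted matrix proteins the 2 genes went in opposite directions. CTHRC1, a secreted glycoprotein that in mice limits collagen deposition and binds Wnt and Frizzled proteins, was at 4.84, 4.89, 4.98 and 5.04 on the JJN3 arrays, against -4.93, -4.84, -5.43 and -5.08 on the RPMI-8226 arrays. Its mean difference of 10.01 ± 0.32 (JJN3 minus RPMI-8226, SD of the 4 within-treatment pairs) was the largest of all 54675 probe sets. FN1, fibronectin, was the mirror case: 211719_x_at was at -4.19, -4.55, -4.28 and -4.58 in JJN3, against 4.19, 4.67, 4.41 and 4.76 in RPMI-8226, a difference of -8.91 ± 0.45. All 7 FN1 probe sets were lower in JJN3 with no overlap, but by very different amounts. The probe sets 210495_x_at, 211719_x_at, 212464_s_at and 216442_x_at gave -6.93 to -8.91 and 214702_at gave -5.05 ± 0.53. The remaining probe sets, 214701_s_at and 1558199_at, gave -2.18 ± 0.67 and -1.61 ± 0.37. Affymetrix uses the suffix x for probe sets whose probes can also bind other transcripts, and 3 of the 7 FN1 probe sets and those of KRT18 and of VIM 1555938_x_at carry it.

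PLOD2, the lysyl hydroxylase that modifies collagen telopeptides for cross-linking, was higher in JJN3 by both probe sets. On 202620_s_at it was at 4.23, 4.36, 4.13 and 3.99 in JJN3, against -3.99, -4.11, -4.09 and -4.25 in RPMI-8226, a difference of 8.29 ± 0.12 whose spread over the treatments was the smallest of the 21 probe sets. With 202619_s_at the difference was 6.71 ± 0.43.

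The surface receptors SDC2 and FZD6 were both higher in JJN3. SDC2, a syndecan whose heparan sulfate chains bind growth factors and matrix proteins, was at 3.25, 3.85, 4.10 and 3.91 on 212158_at in JJN3, against -3.25, -3.60, -3.63 and -3.69 in RPMI-8226 (7.32 ± 0.56). Its other probe sets gave 6.62 ± 0.31 (212154_at) and 3.31 ± 0.44 (212157_at). FZD6, a Frizzled receptor of Wnt ligands with a known role in planar cell polarity, was at 4.01, 3.80, 3.30 and 3.33 in JJN3, against -3.30, -3.76, -3.98 and -4.04 in RPMI-8226 (7.38 ± 0.12). In both lines the XBP1 shRNA array was the highest and the IRE1 shRNA array the next.

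Of the junction genes, GJA1, the gap junction protein connexin 43, was at 3.24, 4.20, 4.28 and 4.37 in JJN3, against -3.40, -3.55, -3.24 and -3.38 in RPMI-8226 (7.41 ± 0.53). CDH1, E-cadherin, was much closer between the lines. On 201131_s_at it was at 0.20, 0.70, 0.98 and 1.30 in JJN3, against -2.33, -0.69, -0.61 and -0.20 in RPMI-8226 (1.76 ± 0.53). The lines were kept apart there by a gap of 0.41, from the JJN3 XBP1 shRNA array to the uninfected RPMI-8226 array. On 201130_s_at the difference was -0.07 ± 0.41, with values of 0.04, 0.16, -0.06 and -0.11 in JJN3 and -0.26, -0.00, 0.56 and 0.00 in RPMI-8226.

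The cytoskeletal genes were split. KRT18, the type I keratin that pairs with KRT8 in simple epithelia, was lower in JJN3, at -3.19, -2.79, -2.95 and -2.37, against 2.37, 2.52, 2.51 and 2.79 in RPMI-8226 (-5.37 ± 0.17). Its partner KRT8, named after its values were seen, differed by -0.63 ± 0.13. S100A4, a calcium-binding protein that binds non-muscle myosin and is linked to cell motility, was at -3.76, -4.97, -4.31 and -4.01 in JJN3, against 4.33, 3.92, 3.76 and 3.84 in RPMI-8226 (-8.23 ± 0.46). VIM, vimentin, was higher in JJN3 on 1555938_x_at, at 0.87, 2.08, 1.33 and 1.57, against -1.45, -0.87, -1.08 and -0.97 in RPMI-8226 (2.56 ± 0.28). On 201426_s_at the lines overlapped, with -0.03, 0.47, -0.36 and 0.28 in JJN3 and -0.87, 0.03, -1.46 and 0.15 in RPMI-8226 (0.63 ± 0.43). The direction of vimentin between the lines thus rested on 1 of its 2 probe sets, and after cyclic loess scaling 201426_s_at gave -0.0061.

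The related gene lists were read on the same contrast, leaving out the 10 genes themselves, against a background of 12.9% of all 19775 genes higher in JJN3 and 7.74% lower (1 probe set a gene, no overlap and at least 1 log2 unit). Of 24 other syndecan, glypican and heparan sulfate genes 8 were higher and 1 lower, the largest being HS6ST2, a heparan sulfate 6-O-sulfotransferase, at 7.17 ± 0.51. Of 18 other Frizzled and Wnt co-receptor genes 6 were higher and 0 lower (a description with no test), with ROR2, a receptor tyrosine kinase for Wnt5a, at 1.79 ± 0.64. Of 33 actin cytoskeleton genes 8 were higher and 3 lower, with MARCKS, an actin-binding substrate of protein kinase C, at -7.11 ± 0.45. Of 14 epithelial-mesenchymal transition factors 3 were higher and 2 lower, led by TWIST1 at 5.65 ± 0.21. The remaining lists lay nearer the background: 4 higher and 1 lower of 30 matrix proteins, led by the laminin chain LAMB3 (-3.48 ± 0.65), and 3 and 1 of 21 collagen-modifying enzymes, led by the prolyl hydroxylase subunit P4HA2 (4.42 ± 0.32). Among 24 integrins the counts were 4 and 1 (ITGB8, 3.01 ± 0.65), among 15 cadherins and catenins 2 and 2 (desmoglein DSG2, -5.49 ± 0.54) and among 17 connexins, pannexins and tight junction genes 2 and 1 (connexin 45, GJC1, 3.27 ± 0.46). The counts were 2 and 2 of 20 intermediate filament genes (synemin SYNM, 4.84 ± 0.25) and 1 and 2 of 18 S100 genes (S100A6, -4.20 ± 0.57). Median line differences of the lists lay between -0.43 and 0.0242, beside -0.23 for all genes.

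**Figure D2:**
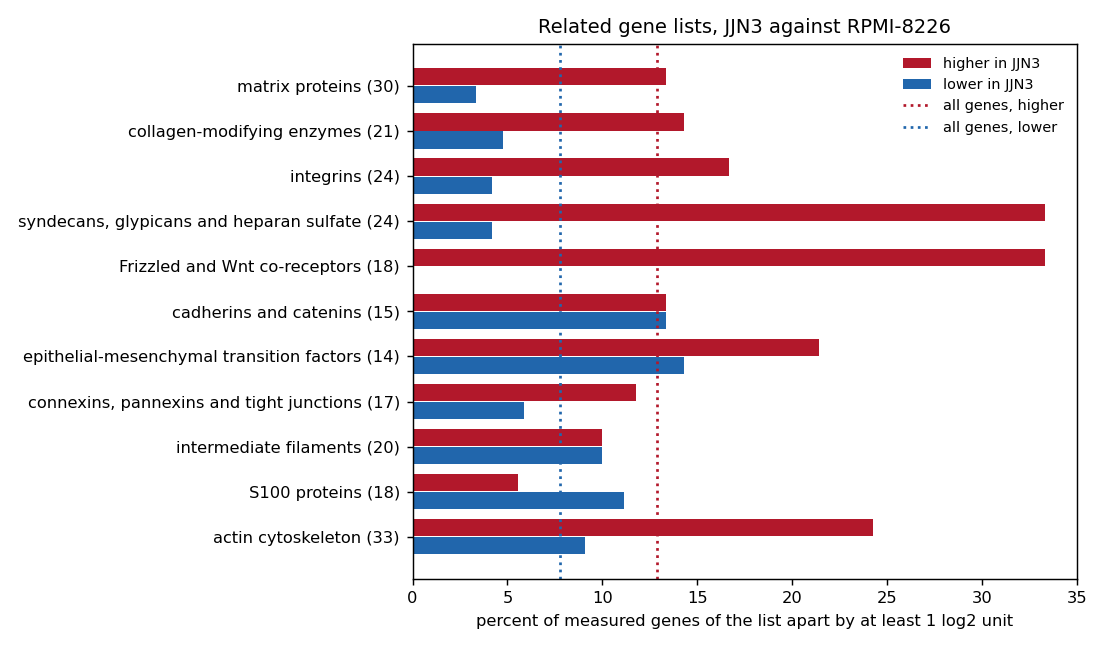
Percent of the measured genes of each related list, without the 10 genes described here, that were higher (red) or lower (blue) on all 4 JJN3 arrays than on the 4 RPMI-8226 arrays by at least 1 log2 unit; the number of genes stands in brackets and the dotted lines mark the shares over all genes, 12.9% and 7.74%. The heparan sulfate and Frizzled lists have the largest red bars.

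Markers of cells that carry such genes elsewhere were read beside them by the same rule. By it 12.9% of all genes were higher in JJN3 and 7.74% lower. Of 8 fibroblast and stroma markers 1 (ACTA2, smooth muscle actin) was higher in JJN3 and 0 lower, and their mean centred value ran from -0.16 to -0.05 over the JJN3 arrays and from 0.0634 to 0.17 over the RPMI-8226 arrays. Of 7 epithelial markers 1 (MUC1) was higher and 0 lower, with means of -0.22 to 0.15 in JJN3 and -0.0888 to 0.0432 in RPMI-8226. Other epithelial genes, named after their values were seen, were mixed. DSP (-4.23 ± 0.47), OCLN (-3.05 ± 0.62), KRT7 (-2.25 ± 0.31) and OVOL2 (-2.25 ± 0.18) were lower in JJN3, like KRT18. CLDN3, CLDN7 and GRHL2 were not apart by the rule, and CDH1 201131_s_at was higher. The 4 myeloid markers had 0 higher and 0 lower, with means of -0.24 to -0.13 in JJN3 and 0.14 to 0.20 in RPMI-8226. Of 4 endothelial markers 1 (PECAM1) was higher in JJN3 and 0 lower, with means of 0.014 to 0.54 in JJN3 and -0.0969 to -0.0301 in RPMI-8226. Of 9 plasma cell markers, among them XBP1, the target of the XBP1 shRNA, 2 were higher and 4 lower in JJN3. CD38 was at -4.72 ± 0.68, and the means ran from -0.60 to 0.25 in JJN3 and from -0.0478 to 0.58 in RPMI-8226. The part of the markers in the line differences was not tested. Because the values are centred, presence or absence of any marker could not be read.

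FZD6 and CTHRC1 are direct neighbours on chromosome 8 among the 19734 measured genes that could be placed in the reference gene order (GRCh38.p14), and SDC2 lies on the same chromosome. Of the 716 measured genes of chromosome 8, 182 (25.4%) were higher in JJN3 by the rule above and 22 (3.07%) lower, beside 12.9% and 7.74% of all genes. Of the 19 measured genes within 10 places of FZD6 on either side, CTHRC1 left out, 5 were higher and 0 lower: AZIN1 at 1.16, ATP6V1C1 at 1.51, RIMS2 at 4.50, LRP12 at 2.62 and OXR1 at 3.59. The genes next to the pair, BAALC (-0.42 ± 0.30) and SLC25A32 (0.29 ± 0.32), were not among them. Around SDC2, 6 of 20 were higher and 2 lower, and its neighbour CPQ, a plasma carboxypeptidase, was at 4.65 ± 0.16. Around the other 7 genes the neighbours higher in JJN3 numbered from 0 of 20 (KRT18) to 6 of 20 (FN1 and GJA1). Those lower numbered from 0 (CDH1) to 2 (VIM and KRT18). FN1, itself lower in JJN3, had 6 neighbours higher and 1 lower. The lower one, LINC00607 (-3.99 ± 0.69), lay directly next to FN1. TBC1D32 (2.74 ± 0.58), next to GJA1, also went with its gene. ST8SIA6-AS1 (-4.63 ± 0.30), next to VIM, was opposite in direction to the most variable probe set of VIM. The part of chromosomal position in the line differences was not tested.

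**Figure D3:**
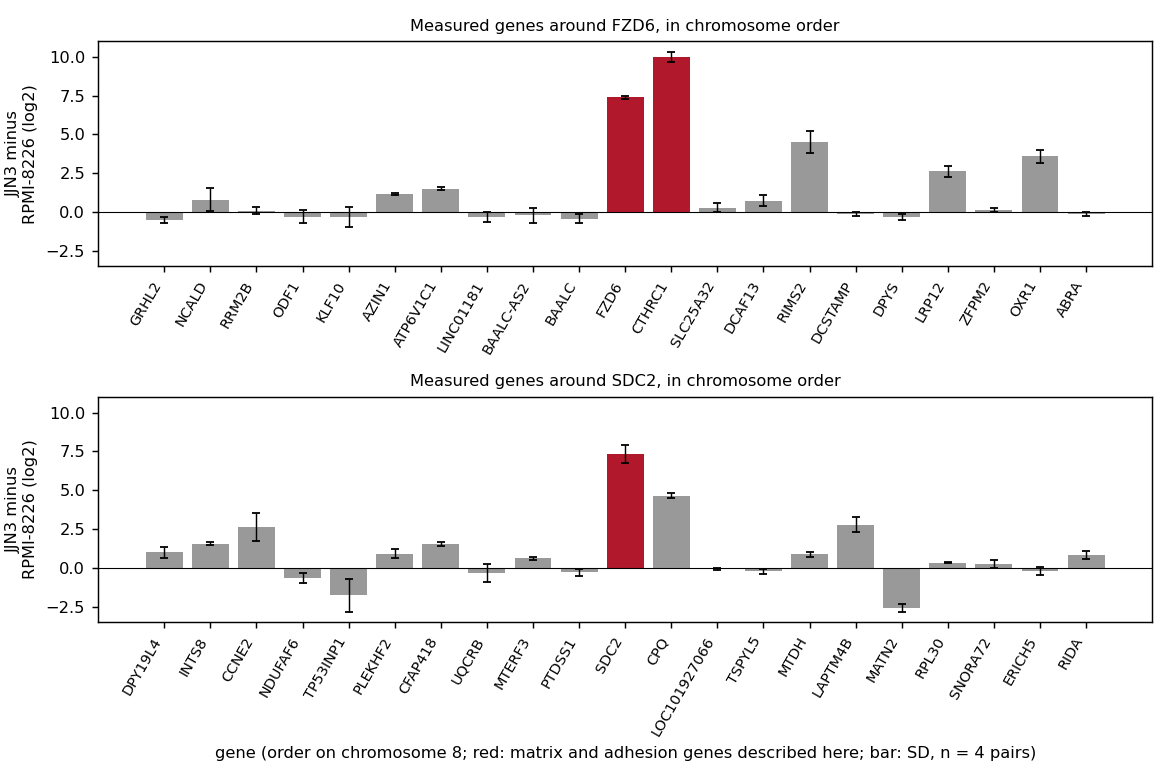
Mean difference between JJN3 and RPMI-8226 (log2, error bars SD of 4 within-treatment pairs) of the measured genes within 10 places of FZD6 (top) and SDC2 (bottom), in their order on chromosome 8. FZD6, CTHRC1 and SDC2 are in red; RIMS2 (4.50) and CPQ (4.65) are the largest of the other bars.

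What the shRNAs did to these genes was tested with limma over all 54675 probe sets, with the line as a block and p adjusted by the Benjamini-Hochberg method. This contrast is separate from the one that chose the genes, although the direction of CDH1 with XBP1 shRNA was already known. For XBP1 shRNA against NT shRNA, 0 of the 21 probe sets passed an adjusted p of 0.05, beside 1.21% of all probe sets (0.527% higher and 0.679% lower). At an unadjusted p under 0.05 stood 7 of the 21, each of a different gene (2 higher, 5 lower), beside 13.7% of all. CDH1 and FZD6 came closest to the threshold. With IRE1 shRNA in place of XBP1 shRNA 0 of 21 passed in limma, beside 0.0183% of all (0.00366% higher and 0.0146% lower), and 3 stood at an unadjusted p under 0.05, beside 9.46%. For NT shRNA against uninfected cells 0 of 21 and 0% of all passed in limma, with 4 of 21 and 5.57% at an unadjusted p under 0.05. All 3 comparisons use the NT shRNA arrays and so share them. Between single arrays, past 1 log2 unit (2-fold), 0 probe sets were higher and 1 lower with XBP1 shRNA over NT shRNA in JJN3, beside 1.16% and 0.991% of all, and in RPMI-8226 0 were higher and 2 lower (CDH1 and FN1), beside 0.629% and 1.24%. With IRE1 shRNA 0 were higher and 0 lower in JJN3, beside 0.682% and 0.949%, and 1 was higher (VIM) and 0 lower in RPMI-8226, beside 0.3% and 0.355%. With NT shRNA over uninfected the JJN3 counts were 0 and 0, beside 0.0476% and 0.0604%, and the RPMI-8226 counts were 0 and 2 (FN1 and VIM), beside 0.38% and 0.503%. These single-array counts have no replicate check.

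**Figure D4:**
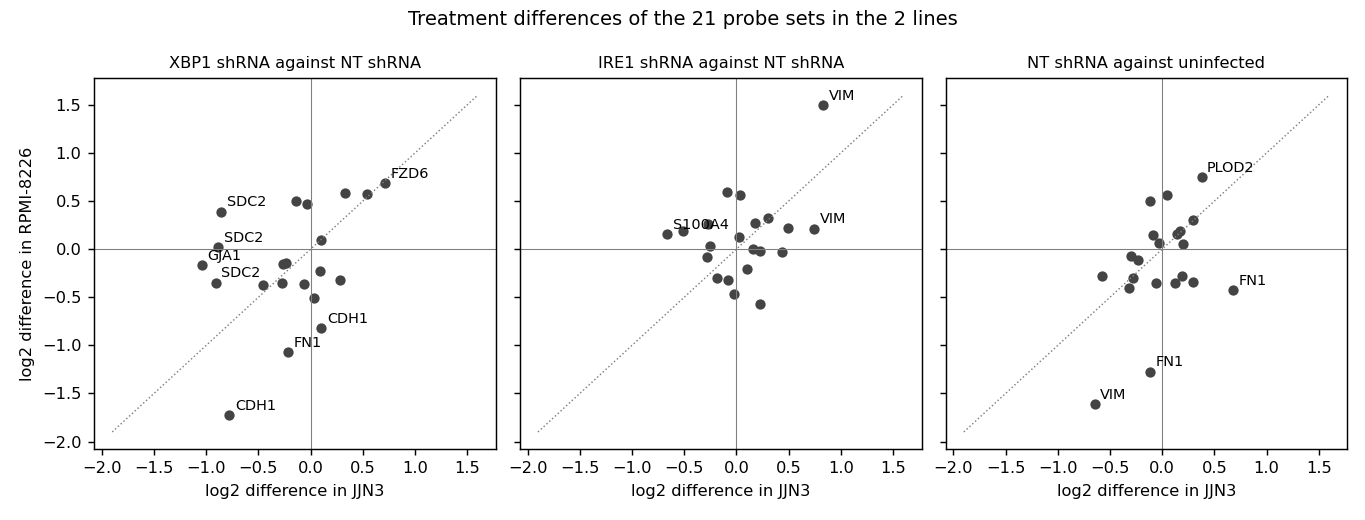
Log2 difference in JJN3 (horizontal) and RPMI-8226 (vertical) of the 21 probe sets for XBP1 shRNA (left) and IRE1 shRNA (middle) over NT shRNA and for NT shRNA over uninfected (right), 1 array against 1 in each line; the dotted line marks equal differences. FZD6 lies at 0.71 and 0.68 with XBP1 shRNA, and VIM 201426_s_at is above 0 in both lines in the middle panel and below 0 in both in the right panel.

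CDH1 was lowest on the XBP1 shRNA array of both lines on 201131_s_at, with differences from NT shRNA of -0.78 in JJN3 and -1.72 in RPMI-8226. The fit gave -1.25 ± 0.25 (SE, limma adjusted p = 0.0560), and against the uninfected arrays -1.61 ± 0.25 (limma adjusted p = 0.0230). With 1 probe set a gene and 19775 genes adjusted over, the same -1.25 had a limma adjusted p of 0.0469, in a fit that both tests fewer features and takes the most variable probe set of each gene. Without the JJN3 XBP1 shRNA array the value was -1.77 (limma adjusted p = 0.0202), and with that of RPMI-8226 left out it was -0.73 (0.127). Each of these fits has a single XBP1 shRNA array, which is assumed to vary like the other treatments, so neither p is a replicate check of the CDH1 difference. On 201130_s_at CDH1 differed by 0.10 in JJN3 and by -0.82 in RPMI-8226, a fit of -0.36 ± 0.21 (limma adjusted p = 0.539). The probe sets of CDH1 thus had the same sign in RPMI-8226 and opposite signs in JJN3.

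FZD6 had the opposite profile. It was higher with XBP1 shRNA than with NT shRNA by 0.71 in JJN3 and 0.68 in RPMI-8226, and with IRE1 shRNA by 0.50 and 0.22. NT shRNA differed from uninfected cells by -0.03 in JJN3 and 0.06 in RPMI-8226. The line difference of FZD6 was 7.38 ± 0.12, and whether it was measurable above background in RPMI-8226 could not be read from centred values. The fit gave 0.70 ± 0.14 for XBP1 shRNA (SE, limma adjusted p = 0.0577) and 0.36 ± 0.14 for IRE1 shRNA (0.464). Against the uninfected arrays XBP1 shRNA gave 0.71 ± 0.14 (limma adjusted p = 0.0440). After quantile normalisation of the table the value over NT shRNA was 1.16 ± 0.14 (limma adjusted p = 0.0230), past the threshold. In each line both shRNA arrays lay above both control arrays, and XBP1 or IRE1 shRNA against NT shRNA or uninfected (4 arrays against 4) gave 0.54 ± 0.12 (limma adjusted p = 0.209). The same comparison gave -0.90 ± 0.31 for CDH1 (0.399), and 0% of all probe sets passed in it, with 2 of the 21 and 9.29% of all at an unadjusted p under 0.05.

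**Figure D5:**
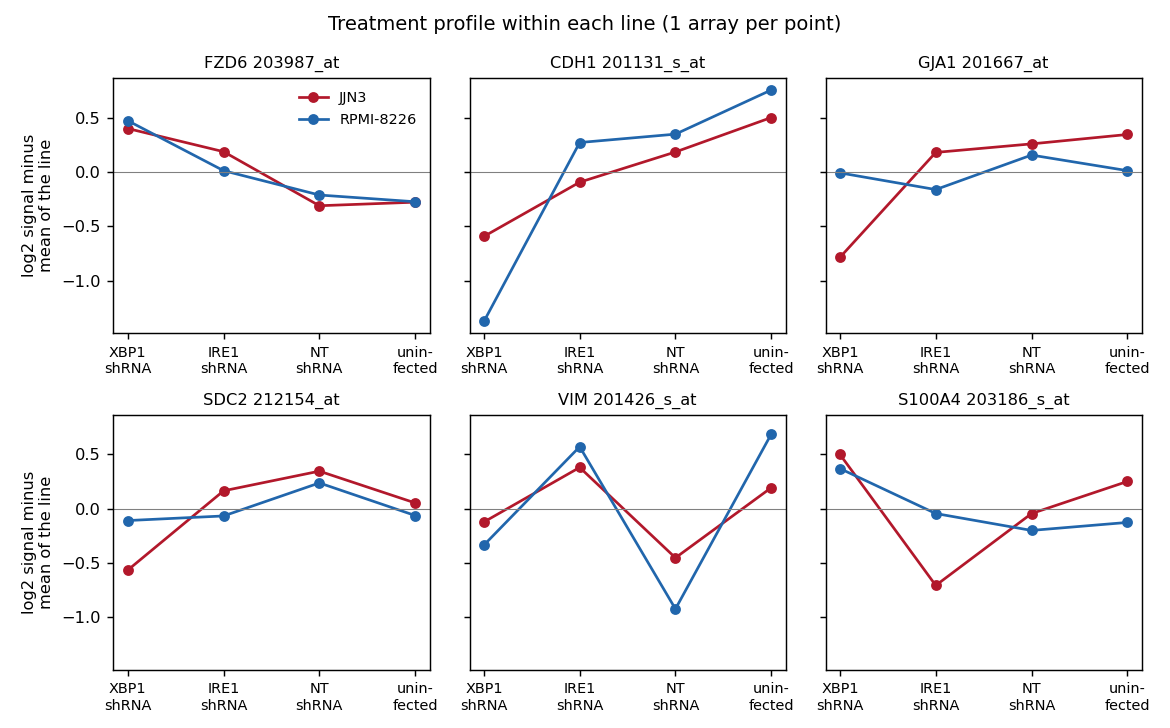
Log2 signal of 6 probe sets on each array minus the mean of the 4 arrays of its line, by treatment, in JJN3 (red) and RPMI-8226 (blue), 1 array per point. Each gene is shown by its probe set of lowest unadjusted limma p with either shRNA, so these profiles were picked on the tested contrast. FZD6 is highest and CDH1 201131_s_at lowest with XBP1 shRNA in both lines. CDH1 201130_s_at, not shown, is lowest there only in RPMI-8226. GJA1 and SDC2 212154_at are low on the JJN3 XBP1 shRNA array, and VIM 201426_s_at is lowest with NT shRNA in both lines.

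GJA1 and SDC2 were low on the JJN3 XBP1 shRNA array. GJA1 differed there from NT shRNA by -1.04, the 1 probe set past 2-fold in JJN3, and in RPMI-8226 by -0.16. The fit gave -0.60 ± 0.25 (limma adjusted p = 0.339), and -1.12 ± 0.19 (0.0460) when the XBP1 shRNA array of RPMI-8226 was left out. That fit sets the JJN3 array alone against NT shRNA, with its error taken wholly from the other treatments, so its p does not show a difference between replicated groups. All 3 SDC2 probe sets were at their JJN3 minimum on that array, with differences from NT shRNA of -0.91 (212154_at), -0.89 (212157_at) and -0.85 (212158_at). In RPMI-8226 the same differences were -0.35, 0.02 and 0.39. The 3 fits ran from -0.63 ± 0.18 (limma adjusted p = 0.157) to -0.23 ± 0.27 (0.800). The centred values do not give signal over background, so whether either gene was measurable above it in RPMI-8226 could not be read.

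S100A4 was higher with XBP1 shRNA than with NT shRNA by 0.54 in JJN3 and 0.57 in RPMI-8226 (0.56 ± 0.23, limma adjusted p = 0.323). With IRE1 shRNA it differed by -0.66 in JJN3 and by 0.16 in RPMI-8226. In JJN3, where its signal is the lower, the XBP1 shRNA array was thus the highest and the IRE1 shRNA array the lowest. KRT18 was lower with NT shRNA than in uninfected cells by -0.58 in JJN3 and -0.28 in RPMI-8226 (-0.43 ± 0.15, limma adjusted p = 0.873). The fits over NT shRNA were -0.19 ± 0.15 for XBP1 shRNA and 0.08 ± 0.15 for IRE1 shRNA (limma adjusted p = 0.684 and 0.937).

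The probe sets of VIM moved differently. With 201426_s_at IRE1 shRNA lay above NT shRNA by 0.83 in JJN3 and 1.49 in RPMI-8226 (1.16 ± 0.22, limma adjusted p = 0.153). NT shRNA in turn lay below uninfected cells by values of -0.65 and -1.61 (-1.13 ± 0.22, 0.873). The NT shRNA array was the lowest of its line both times. The actin 3′ minus 5′ difference was also lowest on that array in each line (0.13 in JJN3 and -0.61 in RPMI-8226). That of GAPDH was lowest there in RPMI-8226 (-0.0834) but not in JJN3 (0.043, with 0.0037 on the XBP1 shRNA array). The part of either in the VIM values was not tested. With 1555938_x_at the NT shRNA array was not the lowest: XBP1 shRNA differed from NT shRNA by -0.41 ± 0.18 (limma adjusted p = 0.341) and IRE1 shRNA by 0.48 ± 0.18 (0.416). With 201426_s_at XBP1 shRNA lay above NT shRNA, by 0.33 in JJN3 and 0.59 in RPMI-8226 (0.46 ± 0.22, limma adjusted p = 0.412). The VIM probe sets thus had opposite signs with XBP1 shRNA in both lines.

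None of the probe sets of the matrix genes and PLOD2 passed in limma for either shRNA, 1 of 10 (FN1 1558199_at, with XBP1 shRNA) being at an unadjusted p under 0.05. CTHRC1 differed with XBP1 shRNA by -0.14 in JJN3 and 0.50 in RPMI-8226, and with IRE1 shRNA by -0.09 and 0.59, with fits of 0.18 ± 0.19 and 0.25 ± 0.19 (limma adjusted p = 0.773 and 0.768). PLOD2 202620_s_at differed by 0.10 ± 0.14 with either shRNA (0.855 and 0.912). PLOD2 202619_s_at differed by 0.22 ± 0.22 with XBP1 shRNA and by -0.24 ± 0.22 with IRE1 shRNA (0.767 and 0.825). For NT shRNA against uninfected cells that probe set gave 0.56 ± 0.22 (limma adjusted p = 0.873). FN1 was lowest on the XBP1 shRNA array of RPMI-8226 with all 7 probe sets, by -0.16 to -1.07 from NT shRNA, and 1558199_at gave the largest fit, -0.64 ± 0.20 (limma adjusted p = 0.184). In JJN3 the 7 differences ran from -0.27 to 0.28. On 211719_x_at, the FN1 probe set with the highest SD, the fits were -0.07 ± 0.23 for XBP1 shRNA and -0.0044 ± 0.23 for IRE1 shRNA.

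Whether silencing acted differently in the lines was tested as an interaction, where the silenced pair and the control pair of each line stood in for replicates. Silenced is here the label of the arrays. On the RPMI-8226 IRE1 shRNA array ERN1 was at 2.11, against 1.73 with NT shRNA and 2.75 in uninfected cells. Of the 21 probe sets 0 passed in limma, beside 0% of all, with 1 of 21 and 5.23% of all at an unadjusted p under 0.05. That probe set was CTHRC1, with a silencing effect in JJN3 minus that in RPMI-8226 of -0.52 ± 0.21 (limma adjusted p = 0.952). Whether CTHRC1, with a line difference of 10.01, was measurable above background in RPMI-8226 could not be read. The low GJA1 and SDC2 values of the JJN3 XBP1 shRNA array concern 1 array and gave -0.44 ± 0.39 and, on 212158_at, -0.69 ± 0.31 in this test (0.974 and 0.952).

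Among the related lists few genes passed over all probe sets, all of them with XBP1 shRNA against NT shRNA, where 1.87% of genes did (1 probe set a gene). Of 33 actin cytoskeleton genes 1 rose and 1 fell: TPM1, a tropomyosin, rose by 1.42 ± 0.14 (limma adjusted p = 0.00930) and MARCKSL1, an actin-binding protein, fell by 2.06 ± 0.15 on the log2 scale (0.00576). TPM1 was at -0.80, -1.73, -2.25 and -2.09 in JJN3 and at 2.21, 1.16, 0.82 and 0.80 in RPMI-8226, so the XBP1 shRNA array was the highest of each line. COLGALT1, which adds galactose to the hydroxylysines that PLOD enzymes make, was the only one of 22 collagen-modifying enzymes to pass and fell by 1.04 ± 0.17 (limma adjusted p = 0.0287). It was at -0.71, 0.01, 0.31 and 0.32 in JJN3 and -0.78, -0.01, 0.27 and -0.20 in RPMI-8226. Of 19 S100 genes 1 fell, S100A11, by 1.04 ± 0.18 (0.0354), opposite in sign to the 0.56 of S100A4. The other 8 of these 11 lists had 0 genes past the threshold with XBP1 shRNA, and all 11 had 0 in the other 4 fits, where 0% to 0.0354% of genes passed. Of 9 plasma cell markers 1 fell with XBP1 shRNA, PRDM1 (BLIMP1, a transcription factor of plasma cells), by 1.23 ± 0.19 (limma adjusted p = 0.0263), and the fibroblast, epithelial, myeloid and endothelial markers had 0. All 5 of these genes kept their direction but missed the threshold without the NT shRNA array of RPMI-8226 (limma adjusted p = 0.111 to 0.245), without that of JJN3 (0.0517 to 0.168) and without the block. As the mean of its probe sets TPM1 gave 0.52 ± 0.12 (0.0911) and PRDM1 -0.72 ± 0.13 (0.0477).

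Likeness of profile was taken as Pearson correlation over the 8 arrays after the mean of each line was taken off, and describes arrays that share these treatments and lines. Among the 10 genes the highest value was that of SDC2 with GJA1 (0.80), followed by PLOD2 with FZD6 (0.77), and the lowest were those of FZD6 with CDH1 (-0.90) and VIM 1555938_x_at with S100A4 (-0.88). As the ends of the range over all pairs, these values are extreme by selection. SDC2 and GJA1 share a low value on the JJN3 XBP1 shRNA array, which is a single array. Of all other genes the closest to FZD6 were CDCA7 (0.99), CUL3 (0.99) and ZMAT3 (0.99), and the closest to CDH1 were FRAT2, MYO1D and TRAPPC2 (0.99 each). These are the highest of all genes measured and so are high by selection. For GJA1 they were TMT1A (0.99), DEFB1 (0.98) and VRTN (0.98).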

How the data were processed

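The deposited table holds log2 values of 54675 probe sets on 8 arrays, made by the authors with RMA (robust multi-array average), per the submitters' processing notes. Its version and settings, the log base and the centring are not given in the sources used here; base 2 was assumed, as RMA commonly returns it. Every probe set had a median of 0 (tolerance 1e-05), so no filter on intensity was possible and the number of arrays limits the precision. The array annotation gave 1 symbol to 41097 probe sets (19775 genes), several to 1801 and none here to 11777.

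Fits used lmFit and eBayes of limma 3.58.1 (R 4.3.3; two-sided), Benjamini-Hochberg adjusted over all 54675, threshold 0.05. Treatments were fitted with the cell line as a block; each line gave 1 array of each treatment, so arrays are paired by line. The fit was also run on simulated data with independent noise for each value. Such data lack errors shared across an array, so that run is no check of the calls here. The 10 genes, the related lists, the markers and the tests were chosen with earlier results of these data known. Line differences are means of 4 within-treatment pairs, with no test. Named beyond the 10 genes were list genes past the threshold (at most 6 a comparison), the list gene with the largest line difference, and the 3 genes of highest profile correlation. Neighbours were taken from the RefSeq gene order. Alternatives were other scalings, an SD filter, gene-level values, no block, robust moderation, another control and leaving out each array.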

Additional observations from a re-analysis of the deposited data

Results flagged for a closer look

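Within the 4 arrays of a line, 4 of 42 sets of values had 1 array far from the other 3 by Dixon's test, where chance flags about 1 in 20, and the 4 arrays of a line are different treatments. GJA1 201667_at was at 3.24 on the JJN3 XBP1 shRNA array, the others between 4.20 and 4.37. SDC2 212154_at was at -2.91 on the RPMI-8226 NT shRNA array, the others between -3.25 and -3.21. FN1 210495_x_at was at -3.52 on the JJN3 NT shRNA array, the others between -3.25 and -3.23. PLOD2 202619_s_at was at 2.90 on the uninfected JJN3 array, the others between 3.24 and 3.27.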

How the results depend on the processing

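With XBP1 shRNA against NT shRNA the count of probe sets past the threshold, 0 of 21, was 1 after quantile normalisation (FZD6), 1 with only probe sets of at least the median SD (CDH1), 1 with 1 probe set a gene (CDH1), 1 with the mean of the probe sets of a gene (FZD6) and 2 with uninfected in place of NT shRNA; leaving out single arrays gave 0 to 1, where a lone array is assumed to vary like the other treatments. The other 4 treatment counts were 0 under every alternative run. The line count of 19 probe sets became 10 genes with 1 probe set a gene and 9 with gene means, by construction a count of other units, and stayed at 19 without any single array. VIM with XBP1 shRNA was reversed as a gene mean (0.0222), which averages its probe sets of opposite sign (-0.41 and 0.46). The overlapping line difference of CDH1 201130_s_at was reversed after cyclic loess (0.0627). With single arrays left out it ran from -0.18 to 0.0958, above 0 only without NT shRNA of RPMI-8226. That of VIM 201426_s_at was reversed after cyclic loess (-0.0061). The cause of these line reversals was not tested. FZD6 with XBP1 shRNA was 1.16 after quantile normalisation, against 0.70. The median line difference of all probe sets was -0.14, and -0.0112 after cyclic loess. Without the line as replicate block the CDH1 difference of -1.25 had an SE of 1.08 and that of FZD6 one of 4.34, and 0 of all probe sets passed with XBP1 shRNA (1141 at an unadjusted p under 0.05) or IRE1 shRNA (621). Over all probe sets the XBP1 shRNA count of 659 was 343 after quantile normalisation, 436 and 275 at gene level, 1149 against uninfected, 0 (5669 at an unadjusted p under 0.05) without NT shRNA of RPMI-8226, 6 without NT shRNA of JJN3 and 262 to 342 without any other single array; that of IRE1 shRNA, 10, was 0 (5121) after quantile normalisation, 0 (5152) after cyclic loess, 6 with the SD filter, 5 with gene means, 18 with robust moderation, 1 against uninfected, 38 without IRE1 shRNA of RPMI-8226, 1 without NT shRNA of JJN3 and 0 without any other single array (2409 to 5810). That of silenced against control, 0 (5081), was 14 after quantile normalisation, 47 without IRE1 shRNA and 2 without the uninfected array of RPMI-8226. Leaving out 1 array also gave 1 call each for NT shRNA against uninfected (without NT shRNA of JJN3) and the interaction (without uninfected RPMI-8226), against 0. The 5 list genes and markers called with XBP1 shRNA were 3 after quantile normalisation, 4 with gene means, 0 without the block, 0 without either NT shRNA array and 2 to 4 without any other single array.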
